A study of Rattus norvegicus with 4 samples.

Results

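The 40 genes described here encode the factors of the NF-kB pathway, their inhibitors and activating kinases, and the chemokines, cytokines, receptors and acute-phase proteins of inflammation that are known as its targets or triggers. They were taken by gene symbol from a deposited table of 32545 rat genes, in which they fill 41 entries because Tnf is listed under 2 gene identifiers. Of the 40 genes, 31 carried enough reads to be tested, and 9 did not.

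NF-kB proteins are dimers of Rel-domain subunits that inhibitors of the IkB family hold in the cytoplasm. Signals from the TNF and interleukin-1 receptors run through TRAF adaptors to the IKK complex, which marks IkB for destruction, and the freed dimer enters the nucleus and binds κB sites in DNA. Among its targets are its own inhibitors, which end the response, and chemokines that draw leukocytes. In an injured nerve, Schwann cells are a source of such chemokines, Ccl2 among them, and Ccl2 draws monocytes into the nerve.

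The cells were S16, a rat Schwann cell line, grown in 6-well plates and transfected either with a control siRNA (IDT DS NC1) or with siRNAs against Nr2f1 and Nr2f2. Their products, COUP-TFI and COUP-TFII, are orphan nuclear receptors, and the comparison asks what changes when both are lowered. Each group held 2 libraries of polyadenylated RNA, named A and B by the position of their columns in the deposited table, and no untransfected cells were analysed here. Whether a library stands for a culture of its own is not in the labels, so p-values reflect only how far these libraries spread, which may be technical.

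Gene counts summed to 26561522 and 21556011 in control A and control B, and to 25618234 and 43057750 in siRNA A and siRNA B. Nr2f1 stood at 226 and 208 CPM in control and 61.5 and 56.0 CPM in siRNA libraries, and Nr2f2 at 296 and 282 against 68.1 and 72.7 CPM. This left 27.0% and 24.4% of control, with adjusted p = 4.49e-08 and 1.35e-08, by the quasi-likelihood test of edgeR, adjusted after Benjamini and Hochberg over all 13018 tested genes. That test gives every adjusted p below unless another is named, and 0.05 is the threshold. Of the tested genes, 1048 were higher and 1302 lower in the siRNA libraries. When libraries were scaled by their size and not by TMM (trimmed mean of M-values), 1381 were higher and 1009 lower. Levels are CPM, reads of a gene scaled to a common library size with TMM factors, and differences are log2 fold changes of siRNA over control.

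The Schwann cell identity in the labels was checked against markers. Sox10, the transcription factor that defines the lineage, lay between 686 and 760 CPM, and Ngfr, the low-affinity neurotrophin receptor, between 1312 and 1510 CPM. Gap43 had no count. Macrophages are another known source of inflammatory transcripts, and of 16 macrophage and microglia markers 8 had no count in any library, among them Ptprc, Adgre1, Tyrobp and Cx3cr1. Their summed level was 2.24 to 2.67 CPM in control and 2.99 to 3.31 CPM in siRNA libraries. A list of 12 markers of T cells, B cells and neutrophils summed to 6.88 to 7.55 CPM in control and 7.97 to 9.58 CPM in siRNA libraries, nearly all of it Cd3g.

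Fibroblast and endothelial markers did not give a uniform picture. Col1a1, a collagen chain on the fibroblast list, was at 11540 to 12015 CPM, while Dcn, Lum, Fap and Thy1 had no count. The 8 fibroblast markers summed to 13321 and 13426 CPM in control libraries A and B and to 12194 and 12643 CPM in siRNA libraries. Of 4 tested, 1 passed, Pdgfrb, which fell to 37.9% of control. Pdgfra went the other way without passing, at 1.39 and 2.11 CPM in control and 3.22 and 3.15 CPM under siRNA. Col1a2 was uneven within the groups, at 1025 and 1609 CPM against 443 and 953 CPM. The endothelial markers, 6 of 7 in the table, summed to 13.6 CPM in both control libraries and to 15.5 and 17.2 CPM in siRNA libraries. Vwf was called higher, while Tek lay below both controls without passing, at 5.26 and 6.10 CPM against 3.68 and 4.48 CPM. Tie1 had 12 and 1 reads in control and 0 and 0 under siRNA. Emcn had 1 read in each library, and Cdh5 and Kdr had no count. The part of these markers in the results below was not tested, and in bulk RNA fewer cells of a type cannot be told apart from less RNA per cell.

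Of the 31 tested genes, 24 had an estimate within 0.5 of zero on the log2 scale. Among the 31, 1 was higher (Il1rl1, the IL-33 receptor) and 3 were lower (Ccl2, the monocyte chemokine, Ikbkg, the regulatory subunit of IKK, and Tnfaip3, the feedback inhibitor A20), while 27 did not pass. Over all tested genes 8.05% were called higher and 10.0% lower, 18.1% in all, so that the 4 calls among 31 genes lie near the background share. The median log2 fold change of the 31 genes was -0.03, beside 0.01 over all tested genes, and the median absolute log2 fold change was 0.20 in both. The siRNA libraries lay above both control libraries in 9 of the 31 genes and below both in 9, and overlapped them in 13. Over all tested genes 30.1% lay above, 28.5% below and 58.6% did not overlap in either direction. Before adjustment 2 of the 31 genes had p under 0.05 in the higher and 6 in the lower direction. The shares over all tested genes were 15.2% and 16.2%. Traf1, which is among the 9 above and among these 2, entered the test only through its siRNA counts.

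**Figure D1:**
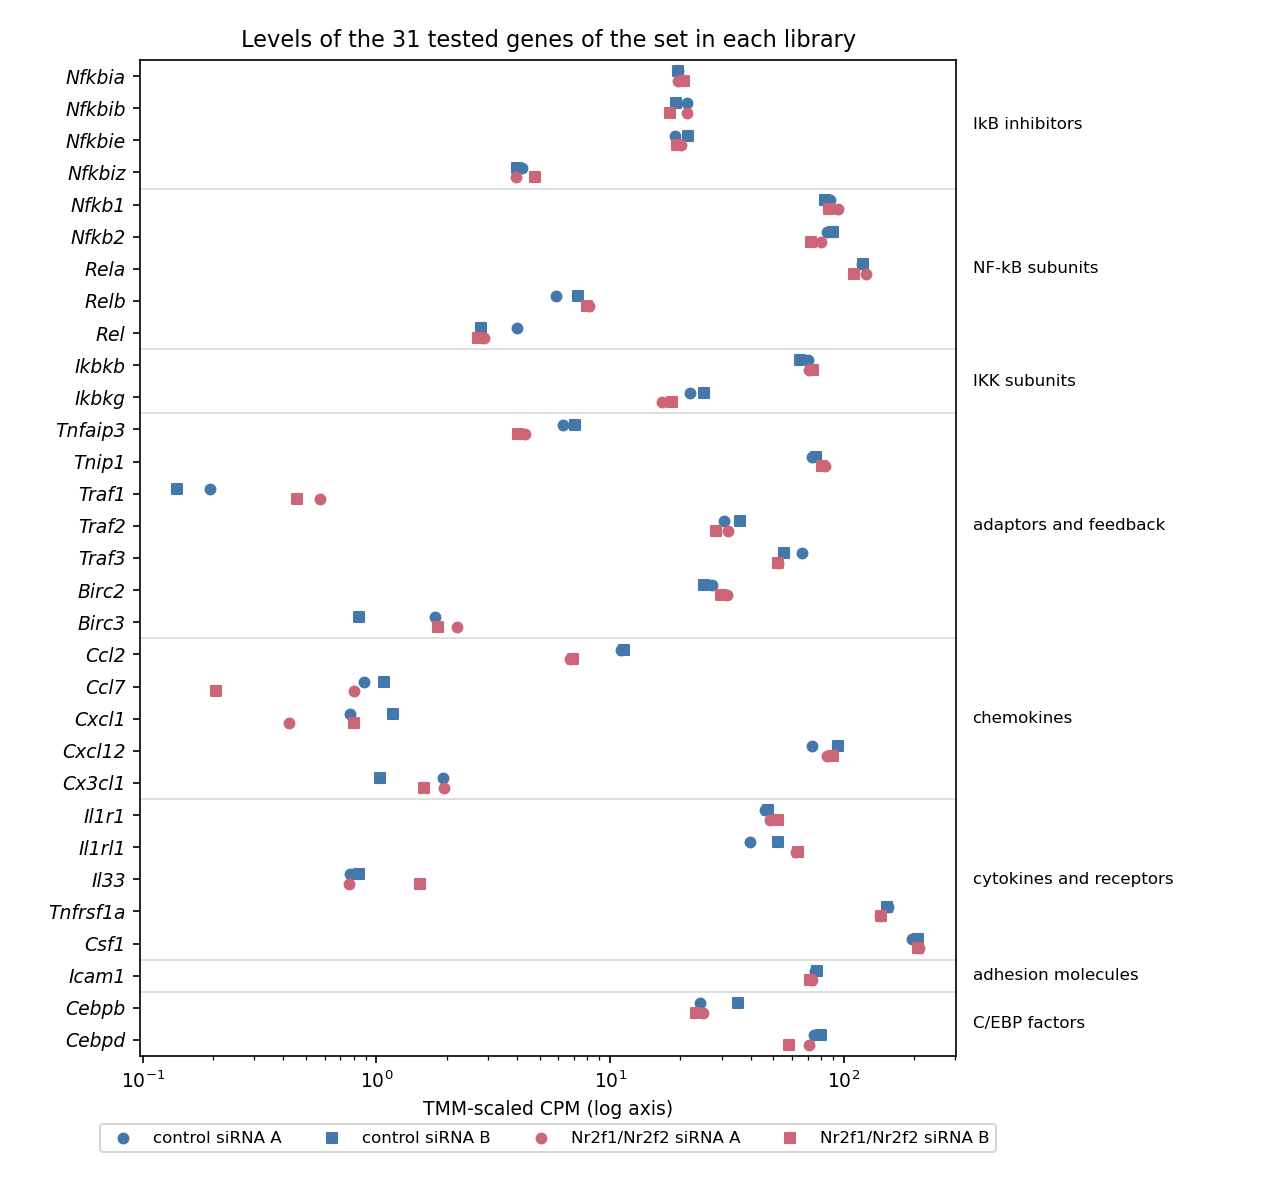
TMM-scaled CPM (log axis) of the 31 tested genes in each library, ordered by role, with circles for library A and squares for library B of each group. In most rows the 4 points lie close together; the control and siRNA points are clear of each other for Ccl2 (11.1 and 11.4 against 6.74 and 6.92 CPM) and the low genes at the left scatter most.

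**Figure D2:**
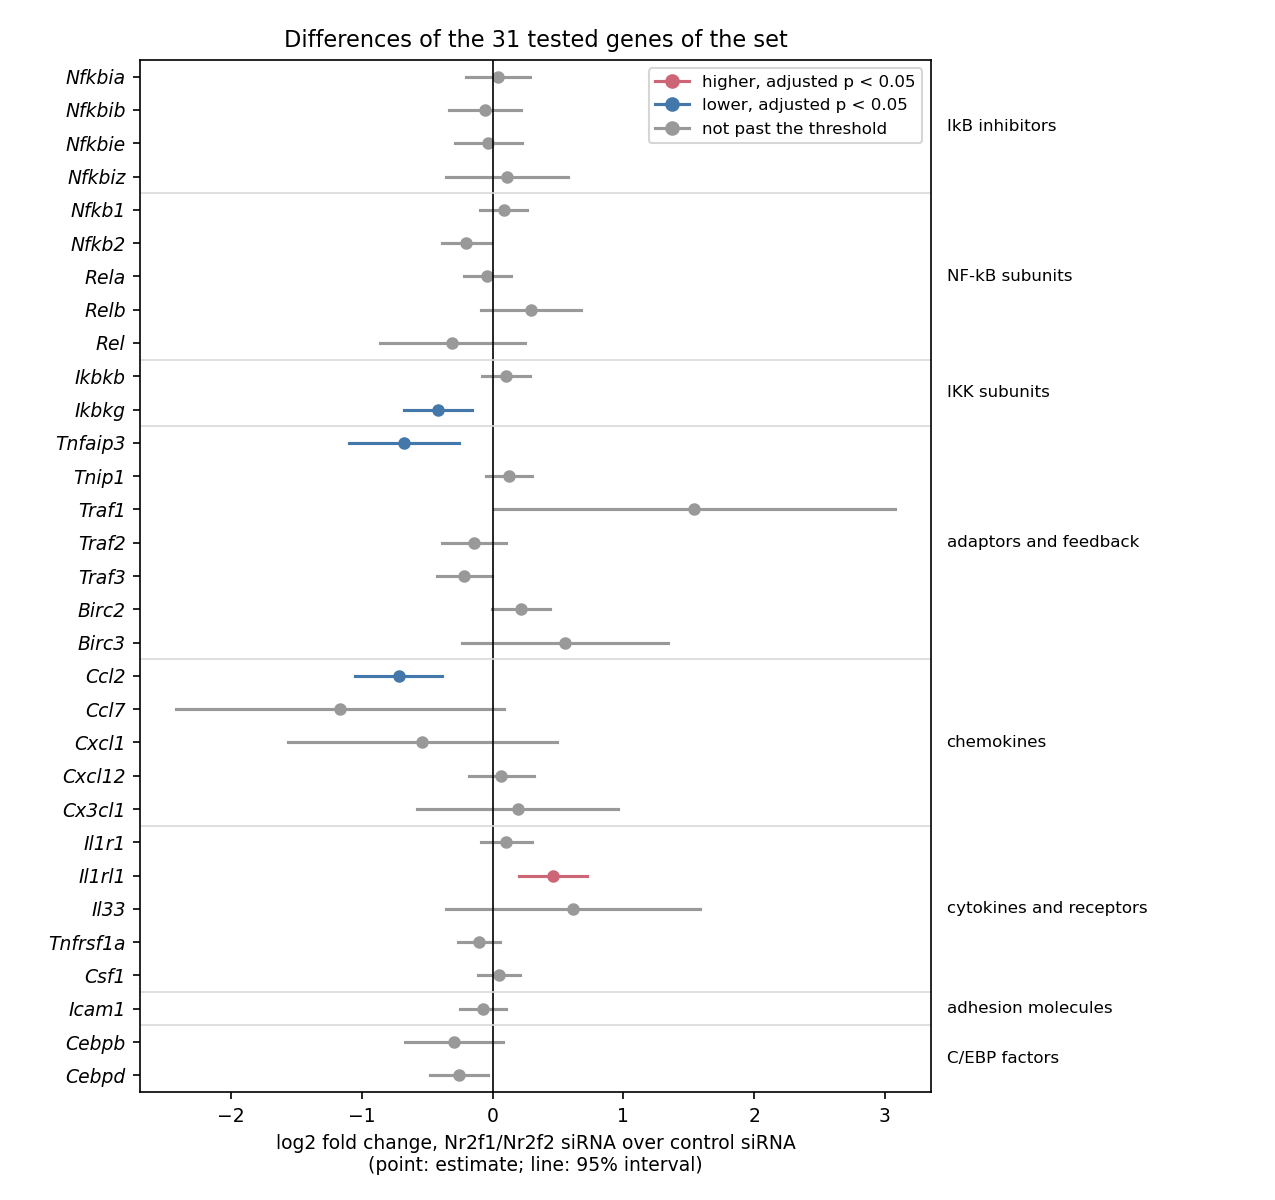
Log2 fold change of the 31 tested genes, siRNA over control, as points with 95% intervals; colour marks the 4 genes past the threshold. Of the 31 estimates 24 lie within 0.5 of zero, and the widest interval, that of Traf1, runs from 0.01 to 3.08.

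Promoter sequences show how many of these genes carry κB letters near their start. RefSeq promoters on the GRCr8 build, 250 bases before and 50 after the annotated start, were found for 33 of the 40 genes, and Ccl2, Ccl5, Csf1, Relb, Ikbkb, Birc3 and Cebpd were without one. The κB letters searched were GGG, any 3 bases and TTCC, on both strands. They were present in 17 of the 33 genes (51.5%). Among all 33469 promoters of the same length the share was 5.37%, and among those of tested genes it was 6.36%. The usual degenerate κB consensus, which overlaps that motif, was present in 16 of the 33 (48.5%), beside 4.18% of all promoters and 4.85% of those of tested genes. The nuclear receptor hexamer AGGTCA, the unit that COUP-TF proteins bind in pairs, was present in 2 of the 33 (C3 and Ccl20, 6.06%). The share was 16.2% of all promoters and 11.7% of those of tested genes. Neither C3 nor Ccl20 had enough reads to be tested. The direct repeat of this hexamer, AGGTCA and AGGTCA with any 1 base between, was in none of the 33 and in 0.0538% of all promoters. A match is a run of letters and not a shown site. Because the set was chosen to include known NF-kB targets, its share with κB letters gives no separate evidence about them. The shares of the set count genes, which have 34 promoters, while the others count promoters.

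The promoters of the called genes differ in these letters, and 3 of the 4 are shown, 5′ to 3′ on the strand of the gene, with matches to GGG, any 3 bases and TTCC, or to the reverse complement, in capitals. Tnfaip3 (chr1:15543930-15544229, minus strand) holds 3 matches, which begin at bases -67, -55 and -10, where +1 is the annotated start. Ikbkg (chrX:157372635-157372934, plus strand) holds 1, which begins at base 7, and Il1rl1 (chr9:50203388-50203687, plus strand) holds none.
Tnfaip3: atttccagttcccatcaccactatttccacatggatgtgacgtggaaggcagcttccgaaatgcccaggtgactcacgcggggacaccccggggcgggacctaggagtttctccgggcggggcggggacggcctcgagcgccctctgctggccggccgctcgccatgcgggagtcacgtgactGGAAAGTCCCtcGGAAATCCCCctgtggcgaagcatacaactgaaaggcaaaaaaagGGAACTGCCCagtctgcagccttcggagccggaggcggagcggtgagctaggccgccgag
Ikbkg: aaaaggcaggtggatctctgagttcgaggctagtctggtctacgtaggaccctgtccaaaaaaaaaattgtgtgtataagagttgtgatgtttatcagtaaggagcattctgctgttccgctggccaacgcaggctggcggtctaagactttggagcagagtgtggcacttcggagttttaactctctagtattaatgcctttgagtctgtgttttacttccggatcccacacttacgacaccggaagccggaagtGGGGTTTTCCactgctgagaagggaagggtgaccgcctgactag
Il1rl1: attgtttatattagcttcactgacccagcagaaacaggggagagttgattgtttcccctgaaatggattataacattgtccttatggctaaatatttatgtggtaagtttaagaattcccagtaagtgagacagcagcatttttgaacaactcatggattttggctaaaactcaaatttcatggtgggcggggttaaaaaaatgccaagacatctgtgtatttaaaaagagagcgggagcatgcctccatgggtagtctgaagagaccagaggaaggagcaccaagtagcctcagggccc

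The same letters recur in the subunit, inhibitor, feedback and chemokine genes, and windows of 40 bases around them are shown to set genes that did not pass, or in the case of Cxcl2 had no read, beside Tnfaip3 and Ikbkg, which fell. They come from Nfkb1 (chr2:226805435-226805474, minus strand), Nfkb2 (chr1:255108339-255108378, plus), Nfkbia (chr6:78597079-78597118, minus), Nfkbiz (chr11:58251693-58251732, plus), Tnip1 (chr10:39585022-39585061, minus), Traf3 (chr6:136027024-136027063, plus), Cxcl1 (chr14:17479390-17479429, minus) and Cxcl2 (chr14:17467295-17467334, minus).
Nfkb1: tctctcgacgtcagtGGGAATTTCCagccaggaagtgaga
Nfkb2: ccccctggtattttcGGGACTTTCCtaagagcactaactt
Nfkbia: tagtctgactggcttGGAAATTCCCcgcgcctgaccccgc
Nfkbiz: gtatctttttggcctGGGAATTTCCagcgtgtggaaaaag
Tnip1: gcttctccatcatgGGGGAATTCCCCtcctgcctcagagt
Traf3: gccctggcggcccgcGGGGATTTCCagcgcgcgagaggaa
Cxcl1: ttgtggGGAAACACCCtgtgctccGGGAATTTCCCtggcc
Cxcl2: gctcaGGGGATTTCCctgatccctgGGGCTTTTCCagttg
In Nfkb1, Nfkbiz and 1 match of Cxcl1 the 10 letters are the same, and Nfkbia holds their reverse complement. Traf3 and 1 match of Cxcl2 also share their 10 letters, whose reverse complement is in Tnfaip3 and Rel. In Cxcl1 and Tnip1 matches on opposite strands overlap each other. By role, among genes with a promoter, 3 of 4 of the IkB family and 3 of 4 subunits held a match. So did 4 of 6 adaptor and feedback genes and 4 of 6 chemokines. The share was 1 of 6 for cytokines and receptors, and neither of 2 adhesion molecules held a match. The degenerate consensus was present in the adhesion gene Vcam1, and it was absent from Traf1 and Ccl7. Among tested genes with a promoter, the 14 with a match had a median log2 fold change of -0.12 with 2 called. The 11 without a match had -0.04 with 1 called, beside 18.1% called over all tested genes, and the difference was not tested. Ccl2 and the other tested genes without a promoter sequence are in neither group.

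The 5 NF-kB subunits were all expressed and none passed in edgeR, DESeq2 or limma-voom, with 1 (Nfkb2) at an unadjusted p under 0.05. Rela, the p65 subunit that carries the main activation domain, was at 119.9 and 120.8 CPM in control and at 124 and 110.1 CPM in siRNA libraries. Nfkb1, the precursor of p50, was at 87.5 and 83.0 CPM against 94.4 and 86.5 CPM. For both genes the groups overlapped, and the log2 fold changes of -0.04 and 0.08 had 95% intervals from -0.22 to 0.14 and from -0.10 to 0.27.

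Nfkb2, which encodes p100 and, after processing, p52 of the noncanonical branch, was at 84.9 and 90.3 CPM in control and at 79.9 and 72.5 CPM in siRNA libraries. Both siRNA values lay below both controls, but the difference did not pass (log2 fold change -0.20, SE 0.09, unadjusted p = 0.0358, adjusted p = 0.129). Relb, the partner of p52, was at 5.87 and 7.32 CPM against 8.09 and 7.99 CPM, above both controls, and did not pass either (0.30, SE 0.18, adjusted p = 0.282). Rel, the c-Rel subunit best known from lymphocytes, was at 3.98 and 2.81 CPM against 2.87 and 2.72 CPM, with overlapping groups.

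The order of the subunits per length was the same in both groups. Per kilobase of gene length as the files give it, control means were 49.3 CPM for Rela, 28.5 for Nfkb2, 22.1 for Nfkb1, 3.38 for Relb and 1.92 for Rel. The siRNA means were 48.0, 24.8, 23.4, 4.12 and 1.58 CPM per kilobase. Nfkb2 exceeded Nfkb1 by less under siRNA than in control.

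None of the 4 genes of the IkB family passed in edgeR, DESeq2 or limma-voom, and none had an unadjusted p under 0.05. Nfkbia, which encodes IkBα and is itself a rapid NF-kB target, stood at 19.5 CPM in both controls and at 19.5 and 20.6 CPM under siRNA. Its log2 fold change was 0.04 with a 95% interval from -0.20 to 0.29, which in percent is 86.9% to 122% of control. Nfkbib (IkBβ) was at 21.4 and 19.1 CPM against 21.3 and 18.0 CPM, and Nfkbie (IkBε) at 19.0 and 21.5 CPM against 20.2 and 19.4 CPM. For these 3 cytoplasmic inhibitors the groups overlapped throughout, and their control means lay between 12.5 and 14.5 CPM per kilobase. Nfkbiz, which encodes the nuclear family member IkBζ, was at 1.01 CPM per kilobase in control. Per library it was at 4.21 and 3.99 CPM against 3.95 and 4.75 CPM, and its interval from -0.36 to 0.57 was the widest of the 4.

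Of the 3 core subunits of the IKK complex, 1 passed the test, the lower Ikbkg. Chuk, the kinase IKKα, which belongs to a further list of pathway genes, was at 77.3 and 66.8 CPM in control and at 72.0 and 73.9 CPM in siRNA libraries (log2 fold change 0.02, SE 0.09, adjusted p = 0.924). Ikbkb, the kinase IKKβ, was at 70.0 and 64.7 CPM in control and at 70.9 and 73.6 CPM in siRNA libraries, just above both controls and not past the threshold (log2 fold change 0.10, SE 0.09, adjusted p = 0.456). Ikbkg, which encodes the scaffold subunit NEMO without which the canonical complex is not active, was at 22.1 and 25.1 CPM against 16.7 and 18.3 CPM. The groups did not overlap, and Ikbkg fell to 74.8% of control (95% interval 62.5% to 89.5%), which on the log2 scale is -0.42 (SE 0.12, adjusted p = 0.0285).

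Ikbkg (ENSRNOG00000060936) lies on chromosome X from 156257173 to 156270748 on the minus strand in the deposited files. Their build is unnamed in the sources used here, and the GRCr8 table has the gene on the other strand. The call was lost without control library B (adjusted p = 0.154), siRNA A (0.136) or siRNA B (0.0604), with library-size scaling (0.0526) and with DESeq2's Wald test (0.0534), within a range over all alternatives of 0.0202 to 0.154. The estimate was negative in each, from -0.51 to -0.33. In the authors' deposited table its adjusted p was 0.0522, and 2 of the 34 genes of the set listed there were under 0.05, beside 11.3% of all genes listed.

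Of the 7 adaptor and feedback genes, 1 passed, Tnfaip3. It encodes A20, a ubiquitin-editing enzyme that is induced by NF-kB and shuts the pathway down upstream of IKK. The level was 6.26 and 7.08 CPM in control libraries, from 313 reads in sum, and 4.33 and 4.02 CPM in siRNA libraries, from 289 reads. All siRNA values lay below all control values, and Tnfaip3 fell to 62.4% of control (95% interval 46.7% to 83.5%), which on the log2 scale is -0.68 (SE 0.19, adjusted p = 0.0285).

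Tnfaip3 (ENSRNOG00000049517, chromosome 1 from 14402913 to 14412807, minus strand, in the deposited files) rested on few reads, and its call was lost whichever library was left out. Leaving out control A or B gave an adjusted p of 0.0534 or 0.127, and leaving out siRNA A or B gave 0.0546 or 0.163. It was 0.0967 with DESeq2, and all alternatives ran from 0.0251 to 0.163. The estimates ran from -0.77 to -0.60, and the authors' deposited table gave an adjusted p of 0.0946.

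Tnip1, which encodes the A20 partner ABIN1, was at 73.4 and 75.9 CPM in control and at 82.7 and 80.2 CPM in siRNA libraries, above both controls, with a log2 difference of 0.13 (SE 0.08, adjusted p = 0.319). The A20 gene lay below its controls and the gene of its partner above, and only the first passed. The difference between these genes was not tested. Per kilobase Tnip1 was at 26.1 CPM and Tnfaip3 at 2.73 CPM in control.

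TRAF adaptors link receptors to IKK and to the kinase NIK. Traf2 was at 30.8 and 35.8 CPM in control and at 32.0 and 28.4 CPM in siRNA libraries, with overlapping groups. Traf3, which keeps NIK low and so restrains the noncanonical branch, was at 66.0 and 55.6 CPM against 52.3 and 52.4 CPM, below both controls (log2 fold change -0.22, SE 0.10, unadjusted p = 0.0455, adjusted p = 0.15). The control libraries of Traf3 were further apart than its siRNA libraries, and without control library B it passed (-0.34, adjusted p = 0.0457, against a range over all alternatives up to 0.692).

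Traf1, an adaptor that NF-kB itself induces, had the lowest level per length among the tested genes, 0.0874 CPM per kilobase in control. It had 5 and 3 reads in control libraries and 15 and 20 in siRNA libraries, or 0.193 and 0.141 CPM against 0.575 and 0.457 CPM. The ratio of summed, depth-scaled counts was 2.96 with an exact Clopper-Pearson 95% interval of 1.35 to 7.37, which covers counting error only. In the fit across libraries the difference did not pass (log2 fold change 1.54, SE 0.71, unadjusted p = 0.0491, adjusted p = 0.157). Traf1 entered the test only through its siRNA counts, so its place among the tested genes depends on the filter.

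Birc2 and Birc3 encode cIAP1 and cIAP2, ubiquitin ligases that work with TRAF2 and TRAF3. Birc2 was at 27.4 and 25.3 CPM in control and at 31.7 and 29.8 CPM in siRNA libraries (log2 fold change 0.22, SE 0.10, adjusted p = 0.176). Birc3 had 46 and 18 reads against 58 and 80 reads, which is 1.78 and 0.844 CPM against 2.22 and 1.83 CPM (0.55, SE 0.36, adjusted p = 0.331). Both genes were above their controls in both siRNA libraries and neither passed.

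Ccl2, also called MCP-1, had the smallest adjusted p of the set. It had 288 and 244 reads in control libraries and 176 and 303 reads in the siRNA libraries, the last of which is the deepest, so that its level was 11.1 and 11.4 CPM in control and 6.74 and 6.92 CPM under siRNA. The libraries of each group were almost equal, and the groups did not overlap. Ccl2 fell to 60.7% of control (95% interval 48.2% to 76.4%), which on the log2 scale is -0.72 (SE 0.15, adjusted p = 0.00657). Its call held in each of the 12 alternatives, among them each library left out, with adjusted p from 0.00405 to 0.0328. The authors' deposited table gave an adjusted p of 0.0122. Ccl2 (ENSRNOG00000007159) lies on chromosome 10 from 69412017 to 69413870 on the plus strand in the deposited files.

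Ccl7, the related monocyte chemokine MCP-3, was at 1.16 CPM per kilobase in control, beside 13.5 for Ccl2. It had 23 reads in each control library and 21 and 9 reads in siRNA libraries A and B, or 0.889 and 1.08 CPM against 0.805 and 0.206 CPM. The low value was that of siRNA library B, the deepest. The difference did not pass with all libraries (log2 fold change -1.17, SE 0.58, adjusted p = 0.191), and it passed without siRNA library A (-2.22, adjusted p = 0.0277, where all alternatives reach up to 0.827). The estimate was -0.28 without siRNA library B, so that the size of the difference rests on that library.

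Neutrophil chemokines were scarce or not seen. Cxcl1 had 20 and 25 reads in control and 11 and 35 in siRNA libraries, or 0.773 and 1.17 CPM against 0.422 and 0.80 CPM, with overlapping groups and an adjusted p of 0.478. Cxcl2 had no read in any library, and its promoter window above holds 2 runs of κB letters. Ccl5 (RANTES), a T cell chemokine, and Ccl20, the ligand of CCR6, also had no read. A count of 0 allows up to 3 reads, which is 0.141 CPM in the shallowest library and 0.0685 CPM in the deepest.

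Cxcl12, the ligand of CXCR4 and a chemokine made constitutively rather than on inflammation, had the highest level per length among the chemokines of the set. It was at 72.7 and 94.0 CPM in control and at 84.5 and 89.5 CPM in siRNA libraries. The siRNA values lay between those of the controls, and the log2 fold change was 0.07 with a 95% interval from -0.18 to 0.32. Cx3cl1, the membrane-bound chemokine fractalkine, had 50 and 22 reads against 51 and 70 reads, or 1.93 and 1.03 CPM against 1.95 and 1.60 CPM. Per kilobase Cxcl12 was at 15.4 CPM in control and Ccl2 at 13.5 CPM, and under siRNA the values were 16 and 8.18 CPM.

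**Figure D3:**
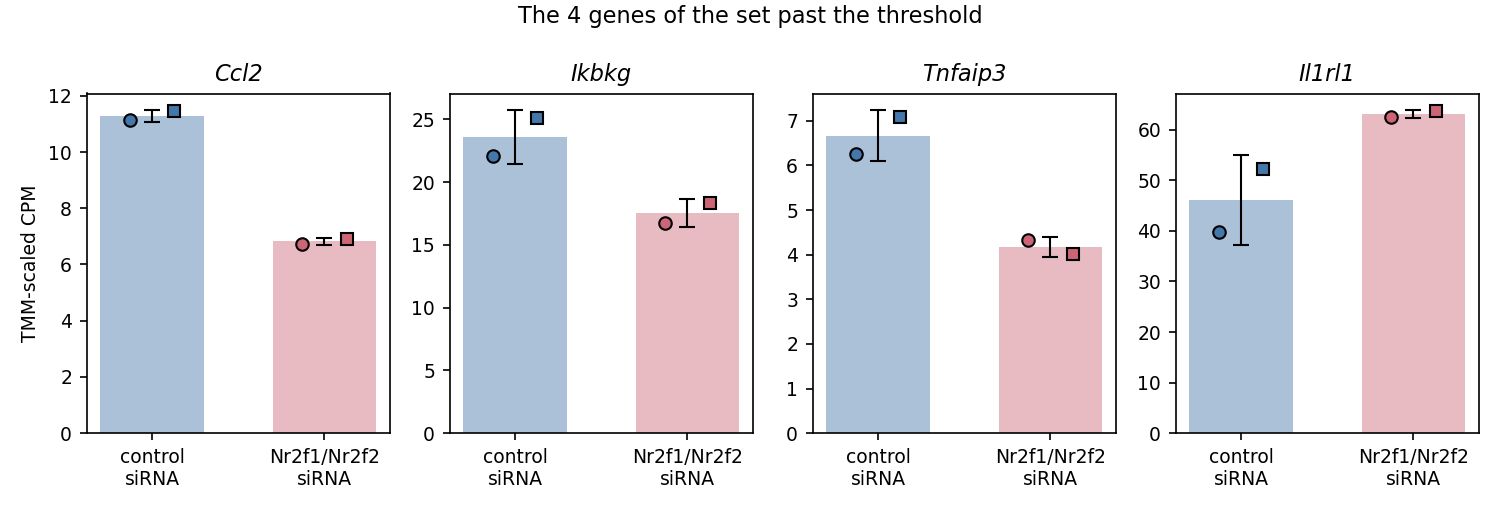
TMM-scaled CPM of the 4 genes past the threshold in control and siRNA libraries; bars are means, error bars are SD (n = 2), circles are library A and squares library B. Ccl2 fell from 11.3 to 6.83 CPM with small spread, and for Il1rl1 the 2 control libraries (39.8 and 52.3 CPM) are further apart than the 2 siRNA libraries (62.5 and 63.7 CPM).

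Il1rl1, which encodes ST2, the receptor of IL-33, was the single gene of the set to rise. It was at 39.8 and 52.3 CPM in control and at 62.5 and 63.7 CPM in siRNA libraries. Both siRNA values lay above both controls, and the controls differed from each other by more than control B differed from the siRNA libraries. Il1rl1 rose to 138% of control (95% interval 115% to 164%), which on the log2 scale is 0.46 (SE 0.12, adjusted p = 0.0196), and the authors' deposited table gave an adjusted p of 0.00802.

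The rise of Il1rl1 (ENSRNOG00000014835, chromosome 9 from 47134034 to 47182170, plus strand, in the deposited files) was not called without control library A. Without that library the estimate was 0.27 with an adjusted p of 0.134, and without control library B it was 0.66. Without siRNA library B the estimate was 0.44 and the adjusted p 0.0750, and over all alternatives the adjusted p ran from 0.000649 to 0.134.

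The ligand Il33 was weak. It had 20 and 18 reads in control and 20 and 67 reads in siRNA libraries, or 0.773 and 0.844 CPM against 0.766 and 1.53 CPM. A single library, siRNA B, was high, the groups overlapped, and the adjusted p was 0.382. Il1r1, the signalling receptor for IL-1, was at 45.9 and 47.6 CPM against 48.3 and 52.0 CPM, above both controls without passing (log2 fold change 0.11, SE 0.09, adjusted p = 0.468). Its ligand gene Il1b had a single read, in siRNA library A.

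Tnfrsf1a, the main TNF receptor, had the highest level of the set per length, 72.0 CPM per kilobase in control and 67.1 under siRNA. It was at 154 and 153 CPM in control and at 143 and 144 CPM in siRNA libraries, below both controls, with a log2 difference of -0.10 (SE 0.07, adjusted p = 0.382). Its ligand gene Tnf had no read under either of its identifiers, of which 1 overlaps RT1-CE7, a gene on the other strand with 1217 reads. The receptors of TNF and IL-1 were thus expressed while at most 1 read was counted for their ligand genes. How reads that fit both entries of Tnf were counted was not tested, so its lack of reads does not show a lack of transcript.

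Csf1, the growth factor of macrophages, was at 197 and 207 CPM in control and at 210.0 and 208 CPM in siRNA libraries, 49.9 and 51.6 CPM per kilobase. The difference was small and did not pass (log2 fold change 0.05, 95% interval -0.11 to 0.21). Its receptor Csf1r, on the macrophage list above, was between 0.580 and 1.03 CPM in all libraries.

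Of the adhesion molecules that let leukocytes bind, Icam1 was at 75.6 and 76.9 CPM in control and at 73.2 and 71.8 CPM in siRNA libraries. The log2 fold change was -0.07 (SE 0.08, adjusted p = 0.588). Vcam1 had 2 reads, both in control library A. The inducible prostaglandin enzyme Ptgs2 (COX-2) had no read, the complement component C3 had 0 and 2 reads in control and 0 and 3 in siRNA libraries, and the iron-binding acute-phase protein Lcn2 had 0 and 3 against 1 and 1. At this depth no difference was detectable in these genes.

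Cebpb and Cebpd encode C/EBP factors that act with NF-kB on acute-phase genes. Cebpd was at 74.2 and 79.9 CPM in control and at 71.2 and 58.1 CPM in siRNA libraries, below both controls (log2 fold change -0.26, SE 0.10, unadjusted p = 0.0269, adjusted p = 0.107). Cebpb was at 24.3 and 35.2 CPM against 25.0 and 23.3 CPM, where only control library B was high and the groups overlapped (-0.29, SE 0.16, adjusted p = 0.264). Whether either passed depended on which library was left out. Cebpd passed without siRNA library A (-0.41, adjusted p = 0.0265, in a range over alternatives up to 0.642) and Cebpb without control library A (-0.55, adjusted p = 0.00896, in a range up to 0.962), while without control library B the estimate for Cebpb was -0.02.

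**Figure D4:**
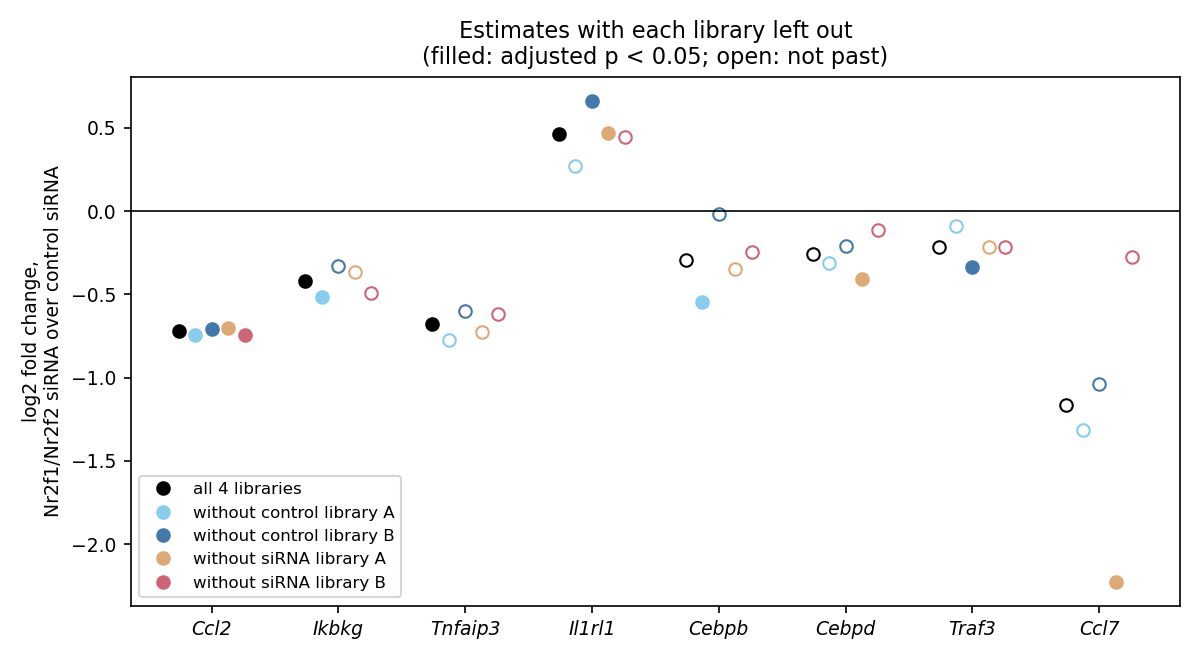
Log2 fold change, siRNA over control, of 8 genes with all 4 libraries and with each library left out in turn; filled points passed an adjusted p of 0.05. Ccl2 stayed between -0.74 and -0.70 and passed each time, while Ikbkg, Tnfaip3 and Il1rl1 each lost the call in at least 2 of the 4 cases and Cebpb, Cebpd, Traf3 and Ccl7 each passed in 1.

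Other genes of the pathway were read from 3 lists that do not contain these 40. The 3 lists were chosen with earlier results of these data known, so their called shares are description only. Of 45 tested genes among 52 further NF-kB pathway components, 4 were higher, 4 were lower and 37 did not pass, a called share near the 18.1% of all genes, with a median log2 fold change of 0.12. Under library-size and under upper-quartile scaling 6 were higher and 3 lower. Nod1, a cytosolic sensor of bacterial peptidoglycan, rose from 15.2 and 17.3 CPM to 27.4 and 33.0 CPM (log2 fold change 0.91, SE 0.13, adjusted p = 0.000483). Il1rap, the co-receptor that both Il1r1 and Il1rl1 need to signal, rose from 54.8 and 53.6 CPM to 72.0 and 75.1 CPM (0.44, SE 0.08, adjusted p = 0.00353). Both held their calls in all 12 alternatives.

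Tlr3, the sensor of double-stranded RNA, was also higher, at 11.5 and 9.19 CPM against 15.1 and 16.4 CPM (0.61, SE 0.15, adjusted p = 0.0127), as was Irak4, the kinase next to MyD88, at 23.6 and 20.7 CPM against 29.5 and 29.4 CPM (0.41, SE 0.11, adjusted p = 0.0215). Tlr3 lost the call without control library B (adjusted p = 0.0828) and siRNA library B (0.0859), where all its alternatives reach from 0.00761 to 0.0859. Irak4 lost it without control library B (0.135), siRNA library A (0.0703) and siRNA library B (0.0897), in a range from 0.0110 to 0.135.

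On the lower side, Card10, a scaffold that couples surface receptors to IKK, was at 95 and 101 CPM in control and at 72.7 and 57.7 CPM under siRNA (-0.59, SE 0.11, adjusted p = 0.00294). Tnip2, a further A20-binding protein, was at 32.5 and 35.7 CPM against 23.5 and 24.1 CPM (-0.52, SE 0.10, adjusted p = 0.00440). These calls held in all 12 alternatives. The A20-binding gene Tnip2 and the A20 gene Tnfaip3 were thus called lower, and Tnip1 was not called, though differences between these genes were not tested.

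Ube2n, the ubiquitin-conjugating enzyme that builds the K63-linked chains of this pathway, was at 144 and 134 CPM against 110.3 and 116 CPM (-0.30, SE 0.08, adjusted p = 0.0218). Map3k14, the kinase NIK, was at 19.9 and 20.8 CPM against 17.3 and 12.6 CPM (-0.47, SE 0.15, adjusted p = 0.0479). Ube2n lost its call when control A (adjusted p = 0.12), siRNA A (0.137) or siRNA B (0.0626) was left out, with all its alternatives between 0.00903 and 0.137. Map3k14 lost its call without control library A (0.0853), control library B (0.117) or siRNA library B (0.45). It also lost it under library-size scaling (0.0761), upper-quartile scaling (0.0634), DESeq2 (0.0904) and limma-voom (0.0539), with all alternatives between 0.00704 and 0.45. Of those not past, the highest in CPM were Ltbr, at 160.8 to 186 CPM, and Irak1, at 110.3 to 122 CPM.

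In a list of 40 further genes known as NF-kB targets, 24 were tested, of which 2 were higher, 5 lower and 17 not past, beside 8.05% higher and 10.0% lower over all tested genes, with a median log2 fold change of 0.07. Sod2, the mitochondrial superoxide dismutase, fell from 125 and 139 CPM to 85.6 and 86.2 CPM (-0.62, SE 0.08, adjusted p = 0.000337). Ripk3, the kinase of necroptosis, fell from 105 and 113 CPM to 73.7 and 69.1 CPM (-0.62, SE 0.08, adjusted p = 0.000378). Lif, a cytokine of the interleukin-6 family, fell from 16.3 and 17.5 CPM to 10.0 and 11.1 CPM (-0.67, SE 0.13, adjusted p = 0.00463). These held their calls in all 12 alternatives.

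Bmp2, a bone morphogenetic protein, was lower at 5.33 and 5.96 CPM against 3.03 and 2.83 CPM (-0.95, SE 0.21, adjusted p = 0.00888), except that without siRNA library B the adjusted p was 0.0573, the highest of its alternatives, which start at 0.00575. Ifngr2, a chain of the interferon-gamma receptor, was named after its values were seen as the fifth lower gene of that list, at 41.5 and 41.2 CPM against 31.6 and 32.0 CPM (-0.38, SE 0.09, adjusted p = 0.0145), and it lost its call without control library A (0.0559), siRNA A (0.0688) or siRNA B (0.0719), between 0.00744 and 0.0719 over all alternatives.

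The higher targets were C1s, a complement protease, at 1.35 and 3.09 CPM against 5.21 and 4.89 CPM (1.22, SE 0.30, adjusted p = 0.0149), and Gadd45b, a stress-induced growth-arrest gene, at 33.5 and 37.5 CPM against 45.0 and 44.2 CPM (0.33, SE 0.10, adjusted p = 0.0328). The control libraries of C1s were further apart than its siRNA libraries. Without control library A its estimate was 0.70 and its adjusted p 0.152, in a range from 0.00113, and without control library B the estimate was 1.88. Gadd45b lost its call without control library A (0.211), siRNA A (0.115) or siRNA B (0.116) and with DESeq2 (0.0628), between 0.0173 and 0.211. Cd44, at 492 to 544 CPM, and F3, at 121 to 139 CPM, had the highest CPM among those not past the threshold.

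Among 43 further chemokines and chemokine receptors, 10 were tested, and 5 of these were higher, 0 lower and 5 not past, beside 8.05% higher and 10.0% lower over all tested genes, with a median log2 fold change of 0.48. In DESeq2 and limma-voom 0 were lower as well, as at an unadjusted p under 0.05 in edgeR. Of the 43, 20 had no read. Ackr4 and Cxcr3, described below, entered the test only through their siRNA counts, so the number of higher genes and the median depend on the filter. Genes under the filter went both ways, such as Ccl11 (4 and 6 reads in control, 3 and 0 under siRNA) and Ccl6 (0 and 0 against 4 and 5). Ccl17, a chemokine read by CCR4, rose from 3.36 and 2.34 CPM to 8.20 and 5.48 CPM (1.19, SE 0.27, adjusted p = 0.00961) and held its call in all 12 alternatives. Ackr3, a scavenging receptor of CXCL12, was at 27.2 and 31.3 CPM against 36.9 and 40.6 CPM (0.41, SE 0.11, adjusted p = 0.0180), and the call was lost without control library A (0.134) or siRNA library B (0.146), between 0.00818 and 0.146.

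Cxcr4, the signalling receptor of CXCL12, was named after its values were seen as the fifth higher gene of that list. It was at 1.97 and 2.63 CPM against 3.76 and 4.13 CPM (0.81, SE 0.25, adjusted p = 0.0437) and lost its call in 7 of 12 alternatives, including each library left out, with adjusted p from 0.0346 to 0.274. Both receptors of CXCL12 were thus called higher while Cxcl12 itself was not called, and differences between these genes were not tested.

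Receptors at very low levels gave the largest estimates. Cxcr3 had 11 and 6 reads in control and 33 and 70 in siRNA libraries, or 0.425 and 0.281 CPM against 1.26 and 1.60 CPM (2.02, SE 0.48, adjusted p = 0.0116), and lost its call without control library B (0.0609) or siRNA library B (0.0635), between 0.00728 and 0.0635. Ackr4 had 7 and 2 reads against 31 and 56 reads (2.68, SE 0.58, adjusted p = 0.00718) and kept its call in all 12 alternatives. Ackr4 overlaps Acad11 on the other strand, which held 1386 reads, and no source used here says whether counting used strand, so reads of the pair cannot be told apart. Cxcl14, at 73.0 to 96.5 CPM, and Cxcl16, at 3.79 to 7.09 CPM, had the highest CPM among those that did not pass. Cxcl14 passed under library-size and upper-quartile scaling (adjusted p = 0.0329 and 0.0413, where its alternatives reach 0.398).

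**Figure D5:**
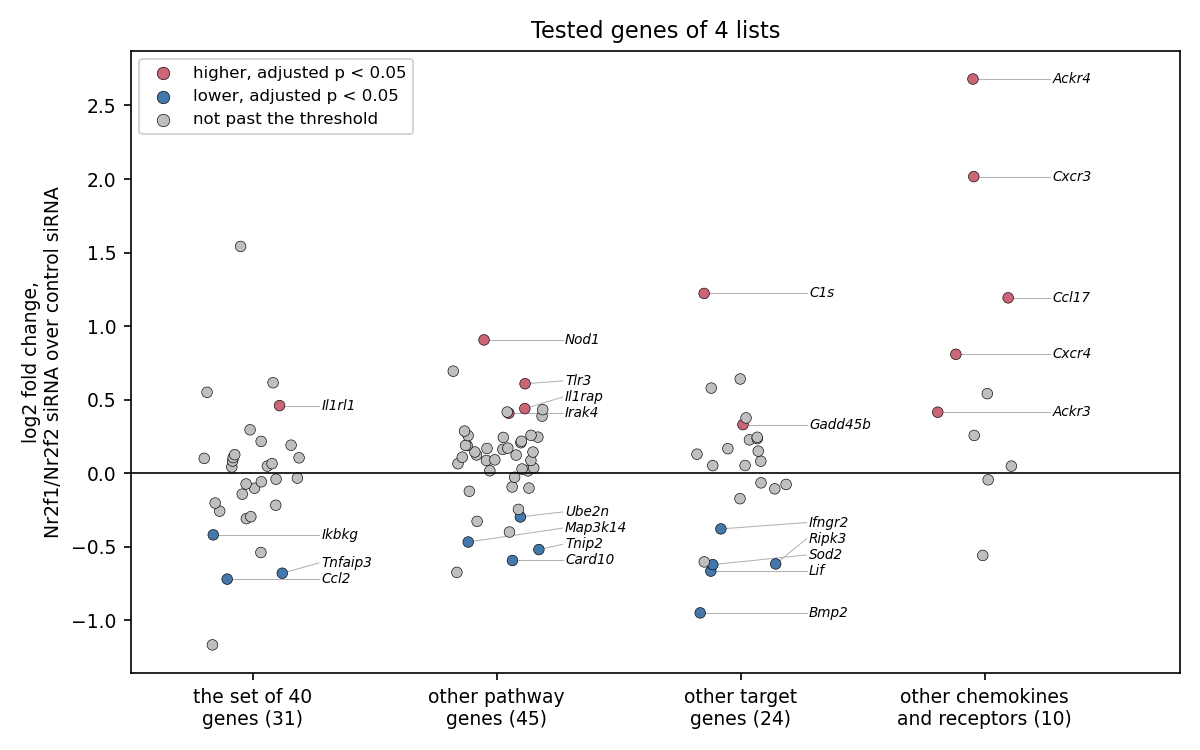
Log2 fold change, siRNA over control, of the tested genes of the set (31) and of the 3 further lists (45, 24 and 10 genes); each point is a gene, and genes past the threshold are coloured and named. Called genes lie on both sides of zero in the first 3 columns, and the 5 called chemokines and receptors lie above zero.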

How the data were processed

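RNA of 4 libraries of S16 cells, 2 per group, was analysed. The authors deposited whole-number read counts per Ensembl gene, and HISAT2, featureCounts 1.5.0-p3 and DESeq2 1.20.0 are named in the submitters' processing notes. Build, annotation release and strand setting are unnamed in the sources used here. The authors' deposited comparison table holds log2 fold changes and p-values, which are quoted as theirs, and signal values (counts divided by size factors), which were not tested. A further 8 per-library columns of that table (copies of the counts, and FPKM values deposited by the authors) were not used.

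Counts were fitted with edgeR 4.0.16 in R 4.3.3, with filterByExpr, TMM scaling and a robust quasi-likelihood fit with the group as its only term, and p-values were adjusted by Benjamini-Hochberg over 13018 genes. The fit was tested on simulated data with 2 libraries a group and a common dispersion for all genes. Of genes given a log2 change of 1, 82.8% were called, and of those given 0.5, 16.8%. Of genes given no change, 0.0234% were called. These shares hold for that setting, in which 95 genes were given 0.5 and 99 were given 1 among 13016. In the data 18.1% of tested genes were called, so the simulated shares do not give the power there. Some changes under 0.5 passed, such as Il1rap (0.44) and Ube2n (-0.30). Some larger ones did not, such as Traf1 (1.54). SEs were derived from the quasi-likelihood F. Alternatives were other scalings and filters, DESeq2 1.42.0, limma-voom (limma 3.58.1), each library left out and, chosen after seeing the data, edgeR's older quasi-likelihood form. CPM floors and count ratios rest on 3 reads and on exact intervals, and reads carried no molecular identifiers. Libraries of a group differed by more than counting noise (chi-square per gene 11.6 and 11.7).

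The 40 genes and the 3 further lists were chosen with earlier results of these data known. The text names all 40 genes, and of each further list up to 4 called genes with the smallest adjusted p in each direction and the 2 most abundant that did not pass. Motifs were counted in RefSeq GRCr8 promoters, whose coordinates belong to that build and not to the deposited files.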

Additional observations from a re-analysis of the deposited data

How the results depend on the processing

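No estimate of a called gene named here changed its sign under the 12 alternatives. With DESeq2, 1 gene of the set was lower in place of 3, and 1 further target gene was higher in place of 2. With 1 library left out, all tested genes gave 1337 to 1882 calls in place of 2350, the set gave 0 to 1 higher and 1 to 3 lower, the further pathway genes 2 to 4 higher and 2 to 4 lower, the further targets 0 to 2 higher and 3 to 5 lower, and the further chemokines and receptors 2 to 4 higher. The lowest counts came without siRNA library B, the deepest, or, for higher target genes, without control library A. A lone library was assumed to vary like the other group. Fewer libraries leave less power, and the cause of each lost call was not tested. Another scaling moved the median log2 fold change of all genes by -0.01 to 0.05. Depth limits the genes with few reads, such as Traf1 with 8 in the control group, whose intervals are wide. No paired analysis was possible because the deposited columns carry the numbers 3 and 1 in the control group and 3 and 2 in the siRNA group, which share fewer than 2 numbers and do not match the titles.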
